A study of Homo sapiens with 3 samples.

Results

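The 9 genes described here are core parts of the p53 and RB pathways: MDM2, CDKN1A, BAX, FAS, GADD45A, GDF15, BBC3, RB1 and CDKN2A. They were read from every probe set that the array's annotation gives to one of these symbols alone, which were 20 of 22277 probe sets and 8 of the 9 genes. BBC3 was listed on 1 probe set only, beside 2 microRNA genes, and that set was not counted. The cells were HEK293T, a human embryonic kidney line with an integrated SV40 large T antigen. All 3 samples were transfected with dCas9VP160, a nuclease-dead Cas9 fused to a transcriptional activator, and by their labels differ in the guide RNA alone. The sgIL1RN1~3 sample received guides to the IL1RN promoter, the sgTetO sample a guide to the TetO promoter, and the sgTetOmut sample a mutated sgTetO without a target. No selection of transfected cells is named, and no array of untransfected cells was used here, so each level is that of a transfected culture with T antigen. Each guide has 1 array. There is therefore no replicate error, no test between guides and no p-value. Fewer cells expressing a gene and less RNA per cell cannot be told apart.

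p53 is a transcription factor that, when stabilised after stress, switches on genes that stop the cell cycle or lead to cell death, and MDM2, one of its own targets, marks it for degradation. RB1 holds back the E2F transcription factors until cyclin-dependent kinases phosphorylate it. Large T antigen binds both proteins: it keeps p53 away from its target genes and frees E2F from RB1. HEK293 cells also carry early adenovirus genes, whose products act on the same proteins.

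CDKN1A, which encodes a cell cycle inhibitor, and BAX, which encodes a pore-forming death protein, read higher with sgIL1RN1~3 than with either other guide, by 0.48 to 0.73 log2 units. GDF15 read higher by 0.42 to 0.51 on 1 of its 2 probe sets, a low-signal one. MDM2, FAS, GADD45A, RB1 and CDKN2A had no probe set 0.32 log2 units or more above, or below, both other guides. No member set differed by 2-fold between any pair of arrays, as 1.06% of all named sets above background did, and the widest range over the 3 arrays was 0.73. Of the 20 sets, 17 lay above background on every array and 3 on none. Background was the highest value among 27 probe sets for Bacillus subtilis transcripts, 3.40 on sgIL1RN1~3, 3.40 on sgTetO and 3.29 on sgTetOmut on the log2 scale. Values of different probe sets are not compared as levels of one gene against another.

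Upstream stretches of 250 bases are shown for CDKN1A and BAX, on which the results turn, and for MDM2, the target through which p53 limits itself. They are RefSeq sequences of build GRCh38.p14 on the plus strand, 5′ to 3′, and end 1 base before an annotated start. The CDKN1A stretch is chr6:36678464-36678713, and its capitals mark 4 GC boxes (GGGCGG, or CCGCCC on the other strand), beginning 104, 94, 45 and 40 bases before the start, of which the last pair share letters. The BAX stretch is chr19:48954625-48954874, and its capitals mark 4 E boxes (CACGTG, the same on both strands), beginning 138, 93, 45 and 14 bases before the start. The MDM2 stretch is chr12:68808767-68809016, before the internal start that p53 is known to drive. Its capitals mark 2 matches to the 20-letter p53 consensus site without a spacer, with 2 and 3 mismatches.
CDKN1A: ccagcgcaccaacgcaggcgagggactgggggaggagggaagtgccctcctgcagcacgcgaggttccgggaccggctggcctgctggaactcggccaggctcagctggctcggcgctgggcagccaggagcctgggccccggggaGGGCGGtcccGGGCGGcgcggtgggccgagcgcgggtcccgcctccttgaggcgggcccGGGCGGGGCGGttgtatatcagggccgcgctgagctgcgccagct
BAX: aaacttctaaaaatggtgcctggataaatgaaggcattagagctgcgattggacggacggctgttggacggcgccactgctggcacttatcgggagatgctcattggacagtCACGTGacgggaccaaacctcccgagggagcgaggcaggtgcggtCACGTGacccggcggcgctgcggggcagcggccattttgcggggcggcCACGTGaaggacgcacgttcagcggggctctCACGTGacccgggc
MDM2: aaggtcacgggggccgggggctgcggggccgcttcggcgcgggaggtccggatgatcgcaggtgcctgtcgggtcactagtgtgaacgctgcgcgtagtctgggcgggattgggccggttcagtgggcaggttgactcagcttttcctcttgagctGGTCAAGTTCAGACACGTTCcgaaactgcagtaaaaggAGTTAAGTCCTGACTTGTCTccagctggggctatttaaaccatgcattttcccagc

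The promoter table held 14 windows for 8 of the 9 members. The GC box was in 10 of them and in 42.6% of all 35116 windows of this length, and the E box in 2 of them, of BAX and BBC3, and in 6.34% of all. Some FAS windows and some MDM2 windows overlap and hold the same GC box, so the 10 are not independent. The p53 rule, with up to 3 mismatches, matched 4 member windows, 2 overlapping ones of MDM2, 1 of FAS and 1 of RB1, and 4.36% of all windows. The RB1 window, the only one for that gene, begins at chr13:48476200, inside the gene, which spans 48303751 to 48481890. Sequence before the first base of RB1 was thus not searched for any motif. The p53 rule matched no window of CDKN1A, BAX, GDF15, BBC3 or CDKN2A. Bases further upstream or within these genes were not searched, so this does not show that they lack p53 sites. The motifs were chosen after the windows had been read, and the mismatch limit was set after another form missed the 2 known sites of MDM2. That form, 10 letters, one arm of the site, with no mismatch, matched 2 member windows, of FAS and RB1, and 5.57% of all windows. A form with 3 mismatches but fixed core letters (C and G in each arm) matched 3, of MDM2 and FAS, and 0.914%. E2F sites (TTTCCCGC, TTTCGCGC, TTTGCCGC or TTTGGCGC, both strands) were in 2 MDM2 windows and 2.79% of all, and TATA boxes (TATAAA or TATATA, plus strand of the gene) in the GDF15 window and 9.51%. These matches describe letters in the windows and nothing of binding.

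**Figure D1:**
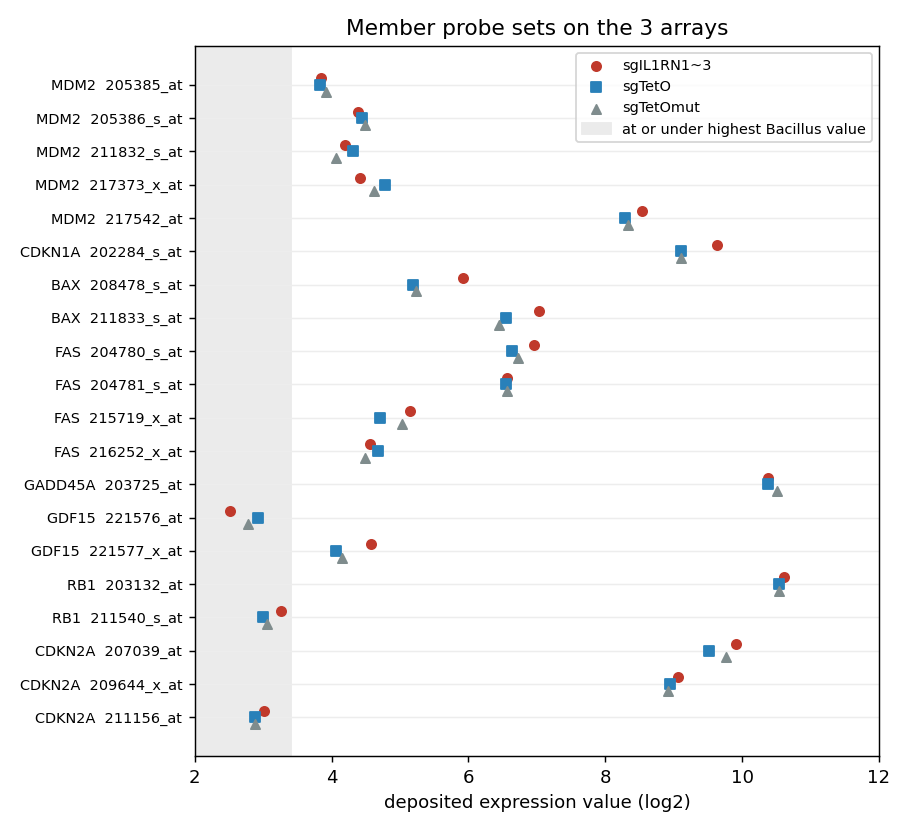
Deposited log2 value (x axis) of the member probe sets (y axis) on the sgIL1RN1~3, sgTetO and sgTetOmut arrays, 1 point per array, with background in grey. For CDKN1A and both BAX sets the sgIL1RN1~3 point lies right of the others by 0.48 log2 units or more, and 3 sets lie wholly within background.

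CDKN1A encodes p21, which blocks cyclin-dependent kinases and is the best-known transcriptional target of p53. Its 1 probe set, 202284_s_at, read 9.63 with sgIL1RN1~3, 9.10 with sgTetO and 9.10 with sgTetOmut. The sgTetO and sgTetOmut arrays held exactly the same value, and sgIL1RN1~3 was 0.53 log2 units, or 1.44-fold, above each. Among all named probe sets above background, 5.06% were at least as far above sgTetO and 3.29% at least as far above sgTetOmut.

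BAX opens pores in the mitochondrial outer membrane. Its set 211833_s_at read 7.04 with sgIL1RN1~3, 6.55 with sgTetO and 6.44 with sgTetOmut. Its set 208478_s_at read 5.92 with sgIL1RN1~3, 5.19 with sgTetO and 5.23 with sgTetOmut. Both sets were highest with sgIL1RN1~3, and their sgTetO and sgTetOmut values lay within 0.11 of each other. The first was 1.40-fold above sgTetO and 1.51-fold above sgTetOmut, and the second was 1.66-fold above sgTetO and 1.61-fold above sgTetOmut. The 4 E boxes of its upstream stretch are printed above.

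GDF15 is a secreted stress cytokine of the TGF-beta family that responds to p53 and to other stress pathways. Its set 221577_x_at read 4.57 with sgIL1RN1~3, 4.06 with sgTetO and 4.15 with sgTetOmut, low values on a scale whose background ends near 3.40. It was higher by 0.51 against sgTetO and 0.42 against sgTetOmut. The other set, 221576_at, lay within background, at 2.52 with sgIL1RN1~3, 2.92 with sgTetO and 2.78 with sgTetOmut, and was lowest with sgIL1RN1~3. With 16 added to the linear values, which damps low signals, 221577_x_at was 0.28 above sgTetO and 0.24 above sgTetOmut, short of 0.32 in both comparisons. The suffix x_at marks sets whose probes can bind transcripts of other genes.

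FAS is the death receptor of the extrinsic apoptosis pathway, and its 4 sets did not move together. Set 204780_s_at read 6.95 with sgIL1RN1~3, 6.64 with sgTetO and 6.72 with sgTetOmut. Set 204781_s_at, annotated to the same transcript record, read 6.56 with sgIL1RN1~3, 6.55 with sgTetO and 6.57 with sgTetOmut, the smallest range of the 17 sets. Set 215719_x_at read 5.14 with sgIL1RN1~3, 4.70 with sgTetO and 5.03 with sgTetOmut, so that sgTetO was the array apart, with a difference of -0.33 from sgTetOmut. Set 216252_x_at read 4.56 with sgIL1RN1~3, 4.68 with sgTetO and 4.48 with sgTetOmut and was highest with sgTetO. FAS thus showed no one order of the arrays.

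GADD45A binds PCNA and stress kinases and is induced by p53 after DNA damage. Its set 203725_at read 10.38 with sgIL1RN1~3, 10.38 with sgTetO and 10.51 with sgTetOmut. The sgIL1RN1~3 and sgTetO values were identical and differed by -0.13 log2 units from sgTetOmut. BBC3 encodes PUMA, which activates BAX. The 1 set that lists it, 211692_s_at, held the same value on all 3 arrays, 5.34, and cannot be assigned to BBC3 rather than to the microRNA genes it also lists.

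MDM2 is the ubiquitin ligase of p53. Its set 217542_at read 8.54 with sgIL1RN1~3, 8.29 with sgTetO and 8.33 with sgTetOmut. The other 4 sets read between 3.83 and 4.78 on the 3 arrays. Set 205385_at read 3.85 with sgIL1RN1~3, 3.83 with sgTetO and 3.91 with sgTetOmut, and set 205386_s_at read 4.38 with sgIL1RN1~3, 4.44 with sgTetO and 4.49 with sgTetOmut. Neither differed by more than 0.10 between any pair of arrays. Set 211832_s_at read 4.19 with sgIL1RN1~3, 4.32 with sgTetO and 4.06 with sgTetOmut, highest on sgTetO. Set 217373_x_at read 4.42 with sgIL1RN1~3, 4.78 with sgTetO and 4.62 with sgTetOmut, a difference of -0.37 between sgIL1RN1~3 and sgTetO. These 4 sets thus pointed both ways, at low values near background. The bright set, 217542_at, was higher with sgIL1RN1~3 by 0.25 against sgTetO and 0.21 against sgTetOmut. Both BAX sets pointed one way, while CDKN1A has 1 set, which cannot disagree with another.

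On the RB side, RB1 set 203132_at read 10.61 with sgIL1RN1~3, 10.54 with sgTetO and 10.54 with sgTetOmut. The sgTetO and sgTetOmut values were identical, and sgIL1RN1~3 was 0.07 log2 units, or 1.05-fold, above them. Its other set, 211540_s_at, was within background, at 3.26 with sgIL1RN1~3, 3.00 with sgTetO and 3.06 with sgTetOmut. CDKN2A encodes 2 unlike proteins from overlapping transcripts: p16, which inhibits CDK4 and CDK6, and ARF, which inhibits MDM2. Its set 207039_at read 9.91 with sgIL1RN1~3, 9.52 with sgTetO and 9.77 with sgTetOmut, with sgTetO the lowest array. Set 209644_x_at read 9.06 with sgIL1RN1~3, 8.95 with sgTetO and 8.91 with sgTetOmut, within 0.15 of one another, and set 211156_at was within background, at 3.02 with sgIL1RN1~3, 2.88 with sgTetO and 2.88 with sgTetOmut. Which transcript each set reads was not settled from the files.

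The guides were then compared in pairs, to ask whether any of them changed these pathways. A difference was counted at 0.32 log2 units or more when the higher value lay above background. Against sgTetO, 6 of the 17 member sets were higher with sgIL1RN1~3: CDKN1A, both BAX sets, GDF15 221577_x_at, FAS 215719_x_at and CDKN2A 207039_at. Among all 14014 named sets above background, 15.0% were that much higher. Of the member sets 1, of MDM2, was lower, where 8.78% of all sets were. The median difference was 0.11 log2 units over the member sets and 0.03 over all sets.

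Against sgTetOmut, 4 of 17 were higher with sgIL1RN1~3, where 11.1% of all sets were, and 0 were lower, where 9.10% were. The 4 were CDKN1A, both BAX sets and GDF15 221577_x_at. The median difference was 0.13 over the member sets and 0.00 over all sets. These 4 sets, of 3 genes, were higher against both, where 8.20% of all sets above background on sgIL1RN1~3 were. Both comparisons use the same sgIL1RN1~3 array, and the BAX sets read 1 gene, so the 4 are not independent. Of the 17 sets, 10 were highest on sgIL1RN1~3, 3 on sgTetO and 4 on sgTetOmut. Over all named sets above background on any array, 41.1% were highest on sgIL1RN1~3.

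Between sgTetO and sgTetOmut, 0 of 17 member sets were higher with sgTetO, where 3.17% of all sets were. FAS 215719_x_at was lower, with a difference of -0.33, where 6.04% of all sets were lower. The median difference was -0.04 over the member sets and -0.02 over all sets.

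**Figure D2:**
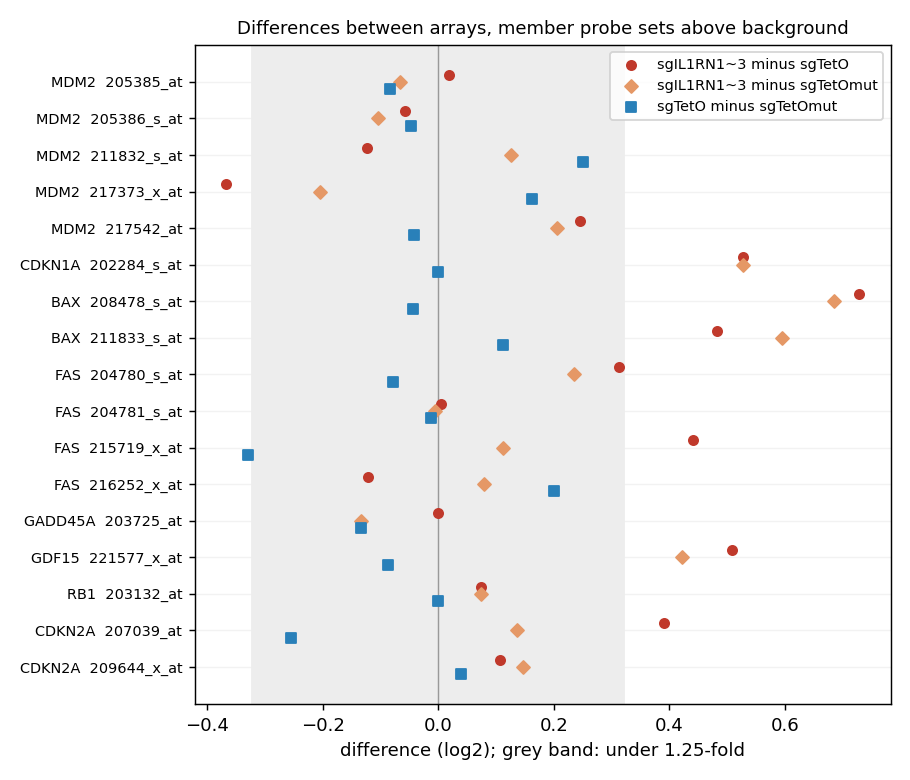
Log2 difference (x axis) of the 17 member probe sets above background (y axis) in the 3 comparisons, 1 point each, with differences under 0.32 in grey. CDKN1A, both BAX sets and GDF15 221577_x_at lie right of the grey band in both comparisons of sgIL1RN1~3, while for sgTetO minus sgTetOmut FAS 215719_x_at, at -0.33, is the 1 set outside it.

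Other properties of the arrays moved with these differences. Chip controls for the 5′ end and middle of the ACTB and GAPDH transcripts were higher on sgIL1RN1~3. The ACTB middle set was 10.65 with sgIL1RN1~3, 9.96 with sgTetO and 10.01 with sgTetOmut, and its 3′ set 13.41 with sgIL1RN1~3, 13.34 with sgTetO and 13.34 with sgTetOmut. Over both transcripts, sgIL1RN1~3 exceeded sgTetO by 0.84 to 0.95 and sgTetOmut by 0.66 to 0.82 at the 5′ end, and the middle sets differed by 0.54 to 0.69. Their 3′ sets differed by -0.01 to 0.07. CDKN1A, BAX and GDF15 221577_x_at differed by 0.42 to 0.73. The part of this shift in the member values was not tested.

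**Figure D3:**
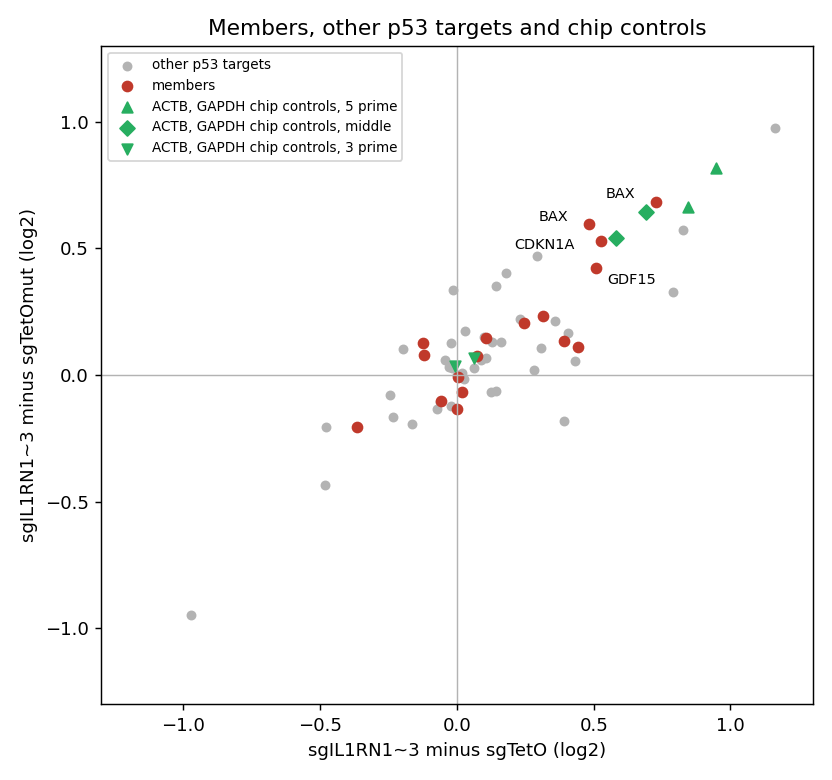
Log2 difference of sgIL1RN1~3 from sgTetO (x axis) and from sgTetOmut (y axis) for member probe sets, sets of other p53 targets, and chip controls of ACTB and GAPDH, 1 point per set. The BAX and CDKN1A points lie beside the middle controls, at 0.54 to 0.69, and the 3′ controls lie within 0.07 of zero.

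Genes of the interferon response were far higher on sgTetOmut. Of 43 interferon sets, 33 lay above background with sgIL1RN1~3, 34 with sgTetO and 40 with sgTetOmut, and their summed linear value was 4440 with sgIL1RN1~3, 5173 with sgTetO and 18003 with sgTetOmut. The median difference of sgIL1RN1~3 was -1.97 from sgTetOmut and -0.09 from sgTetO, and that of sgTetO from sgTetOmut was -1.83. Against sgTetO, 2 of 34 interferon sets were higher with sgIL1RN1~3 and 11, or 32.4%, were lower, beside 8.78% of all sets. Among them IFI44, an interferon-induced protein, differed by -0.96 on set 214059_at, and IFIH1, a sensor of double-stranded RNA, by -0.77. The interferon list thus moved in both comparisons of sgIL1RN1~3, and its part in the member values was not tested. The targeted gene IL1RN, an interleukin-1 antagonist, read 7.01 with sgIL1RN1~3, 2.28 with sgTetO and 2.23 with sgTetOmut on set 212657_s_at, within background with sgTetO and sgTetOmut.

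Markers of the line were present: all 11 sets of 8 HEK293 markers lay above background on each array. VIM, vimentin, read 10.39 with sgIL1RN1~3, 9.87 with sgTetO and 9.88 with sgTetOmut, and 3 of the 11 sets, of VIM, KRT18 and KRT8, were past the limit against both with sgIL1RN1~3, or 27.3% beside 8.20% of all sets. Other sets of the list did not follow: PAX2, a kidney transcription factor, differed by -0.07 from sgTetO and -0.36 from sgTetOmut on set 206228_at, and NEFM, a neurofilament subunit, by -0.04 from sgTetO and -0.09 from sgTetOmut. Over the list, 3 sets were higher and 0 lower than with sgTetO, and 4 were higher and 1 lower than with sgTetOmut. The higher sets were 27.3% of the list against sgTetO, beside 15.0% of all sets, and 36.4% against sgTetOmut, beside 11.1%. The lower sets were 0% against sgTetO, beside 8.78% of all sets, and 9.09% against sgTetOmut, beside 9.10%. Of 14 blood and endothelial sets, 3 lay above background with sgIL1RN1~3, 3 with sgTetO and 5 with sgTetOmut. Of 21 fibroblast and muscle sets it was 11 with sgIL1RN1~3, 9 with sgTetO and 12 with sgTetOmut, and of 12 epithelial and liver sets 5 with sgIL1RN1~3, 4 with sgTetO and 5 with sgTetOmut.

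The other genes of the pathways were read from lists. Of 39 sets of other p53 targets above background, 3 were higher with sgIL1RN1~3 than with both other guides and 2 lower. The 3, of TP53I3 and SFN, were 8.33% of the 36 sets above background on sgIL1RN1~3, close to the 8.20% of all sets. A share of all sets lower than both was not computed. In pairs, 7 of 38 sets were higher than with sgTetO, or 18.4% beside 15.0% of all sets. Against sgTetOmut 7 of 39 were higher, or 17.9% beside 11.1%. The lower sets were 7.89% against sgTetO, beside 8.78% of all sets, and 5.13% against sgTetOmut, beside 9.10%. TP53I3, an oxidoreductase named for its induction by p53, read 6.16 with sgIL1RN1~3, 4.998 with sgTetO and 5.19 with sgTetOmut. SFN, the 14-3-3 sigma protein that holds cells in G2, read 6.63 with sgIL1RN1~3, 5.80 with sgTetO and 6.06 with sgTetOmut on set 33322_i_at, and set 33323_r_at was higher by 0.79 against sgTetO and 0.33 against sgTetOmut. TP53AIP1, a mitochondrial protein, differed in the opposite direction: set 220402_at read 3.28 with sgIL1RN1~3, 4.25 with sgTetO and 4.23 with sgTetOmut, within background with sgIL1RN1~3, and set 220403_s_at differed by -0.48 from sgTetO and -0.43 from sgTetOmut. PHLDA3, an inhibitor of AKT, was higher by 0.29 against sgTetO and 0.47 against sgTetOmut. The list's median was 0.09 against sgTetO and 0.06 against sgTetOmut. The genes named here were picked for lying furthest from the other arrays, so their values describe the ends of the list and not the list.

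Among 30 sets of p53 regulators above background, 3 were higher with sgIL1RN1~3 than with both guides, or 10.0% beside 8.20% of all sets, and 1 was lower. In pairs, 8 of 30 sets were higher than with sgTetO, or 26.7% beside 15.0% of all sets. Against sgTetOmut 3 of 30 were higher, or 10.0% beside 11.1%. The lower sets were 3.33% against sgTetO, beside 8.78% of all sets, and 3.33% against sgTetOmut, beside 9.10%. RCHY1, a ubiquitin ligase of p53, read 6.32 with sgIL1RN1~3, 5.76 with sgTetO and 5.86 with sgTetOmut on set 212743_at, while its brightest set, 214281_s_at, differed by -0.09 from sgTetO and -0.29 from sgTetOmut. Its set 212749_s_at was higher by 0.36 against sgTetO and 0.31 against sgTetOmut. CUL7, a cullin that large T antigen binds, read 5.20 with sgIL1RN1~3, 4.79 with sgTetO and 4.82 with sgTetOmut on set 36084_at, and EP300, a histone acetyltransferase, was higher by 0.38 against sgTetO and 0.33 against sgTetOmut on set 213579_s_at while set 202221_s_at read 11.54 with sgIL1RN1~3, 11.54 with sgTetO and 11.499 with sgTetOmut. ATR, a kinase of the DNA damage response, read 9.95 with sgIL1RN1~3, 10.45 with sgTetO and 10.40 with sgTetOmut on set 209903_s_at. YY1 was higher by 0.73 against sgTetO and 0.30 against sgTetOmut on set 201902_s_at, while set 200047_s_at read 11.92 with sgIL1RN1~3, 11.94 with sgTetO and 11.94 with sgTetOmut. MDM4, the partner of MDM2, held the same value, 4.22, on all 3 arrays. The list's median was 0.11 against sgTetO and 0.05 against sgTetOmut.

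Among BCL2 family members and caspases, which act with BAX, 7 of 47 sets were higher and 3 lower with sgIL1RN1~3 than with sgTetO, and 3 of 49 were higher and 3 lower than with sgTetOmut. The higher sets were 14.9% of the list against sgTetO, beside 15.0% of all sets, and 6.12% against sgTetOmut, beside 11.1%. The lower sets were 6.38% against sgTetO, beside 8.78% of all sets, and 6.12% against sgTetOmut, beside 9.10%. The list had medians of 0.05 against sgTetO and -0.03 against sgTetOmut. BAD, which promotes death, was higher by 0.34 against sgTetO and 0.50 against sgTetOmut on set 1861_at and by 0.12 against sgTetO and 0.12 against sgTetOmut on set 209364_at. BIRC5, survivin, was higher by 0.46 against sgTetO and 0.45 against sgTetOmut on set 210334_x_at and by 0.21 against sgTetO and 0.01 against sgTetOmut on its brightest set, 202095_s_at. HRK, another promoter of death, differed by -0.37 from sgTetO and -0.33 from sgTetOmut on set 206864_s_at, the 1 of its 3 sets past the limit. CFLAR, which blocks signalling from FAS, read 3.85 with sgIL1RN1~3, 3.29 with sgTetO and 3.12 with sgTetOmut on set 210564_x_at, within background with sgTetO and sgTetOmut, and 7.24 with sgIL1RN1~3, 7.09 with sgTetO and 7.03 with sgTetOmut on set 209939_x_at.

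Of 11 sets of the GADD45 family and its kinases, 0 passed the limit against sgTetO, and 2 were higher with sgIL1RN1~3 than with sgTetOmut: GADD45B by 0.35 on set 209305_s_at and GADD45GIP1, a GADD45 binding protein, by 0.36 on set 212891_s_at. These were 18.2% of the list, beside 11.1% of all sets. The brighter GADD45B sets differed by 0.24 on 209304_x_at, 0.03 on 207574_s_at and 0.00 on 213560_at, and GADD45GIP1 by 0.06 on 212889_x_at. The integrated stress response also feeds GADD45A and GDF15. Of its 16 sets, 3 were higher with sgIL1RN1~3 than with both guides, or 18.8% beside 8.20% of all sets. In pairs, 3 were higher in each, or 18.8%, beside 15.0% of all sets against sgTetO and 11.1% against sgTetOmut. The lower sets were 0% against sgTetO, beside 8.78% of all sets, and 6.25% against sgTetOmut, beside 9.10%. This list had medians of 0.06 against sgTetO and 0.04 against sgTetOmut. DDIT4, an inhibitor of mTOR signalling, was higher by 0.67 against sgTetO and 0.34 against sgTetOmut, ATF3, a stress transcription factor, by 0.67 against sgTetO and 0.34 against sgTetOmut, and PSAT1, an enzyme of serine synthesis, by 0.47 against sgTetO and 0.47 against sgTetOmut. NUPR1, a stress-induced nuclear protein, differed by -0.04 from sgTetO and -0.35 from sgTetOmut.

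On the RB side, 7 of 24 sets of the RB family and E2F factors were higher and 2 lower with sgIL1RN1~3 than with sgTetO, and 4 were higher and 1 lower than with sgTetOmut. The higher sets were 29.2% of the list against sgTetO, beside 15.0% of all sets, and 16.7% against sgTetOmut, beside 11.1%. The lower sets were 8.33% against sgTetO, beside 8.78% of all sets, and 4.17% against sgTetOmut, beside 9.10%. The list had medians of 0.08 against sgTetO and 0.10 against sgTetOmut. RBL1, a relative of RB1, read 7.51 with sgIL1RN1~3, 7.42 with sgTetO and 7.44 with sgTetOmut. RBL2, another relative, read 8.62 with sgIL1RN1~3, 8.99 with sgTetO and 8.99 with sgTetOmut on set 212331_at but 5.65 with sgIL1RN1~3, 5.23 with sgTetO and 5.70 with sgTetOmut on set 212332_at. E2F1, the activator that RB1 restrains, read 7.81 with sgIL1RN1~3, 7.82 with sgTetO and 7.69 with sgTetOmut on set 204947_at. E2F3 was higher by 0.78 against sgTetO and 0.35 against sgTetOmut on set 203692_s_at, but by 0.03 against sgTetO and 0.03 against sgTetOmut on set 203693_s_at. TFDP1, the partner of E2F proteins, was higher by 0.58 against sgTetO and 0.60 against sgTetOmut on set 204147_s_at and by 0.19 against sgTetO and 0.15 against sgTetOmut on set 212330_at, and E2F8, a repressor, differed by -0.72 from sgTetO and -0.27 from sgTetOmut. The sets of RBL2 thus gave different orders of the arrays, and those of E2F3 differed in the size of the shift and in the order of sgTetO and sgTetOmut, which were tied on 203693_s_at.

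Of 24 sets of cyclins, their kinases and the inhibitors of these, 7 were higher and 0 lower with sgIL1RN1~3 than with sgTetO, and of 25 sets 4 were higher and 1 lower than with sgTetOmut. The higher sets were 29.2% of the list against sgTetO, beside 15.0% of all sets, and 16% against sgTetOmut, beside 11.1%. The lower sets were 0% against sgTetO, beside 8.78% of all sets, and 4% against sgTetOmut, beside 9.10%. CDK4, a kinase that acts on RB1, read 9.97 with sgIL1RN1~3, 9.37 with sgTetO and 9.51 with sgTetOmut. CDK6 read 3.03 with sgIL1RN1~3, 2.77 with sgTetO and 3.39 with sgTetOmut, above background on sgTetOmut alone. CCND1, cyclin D1, read 7.91 with sgIL1RN1~3, 7.80 with sgTetO and 7.94 with sgTetOmut on set 208712_at. CDC25A, a phosphatase that activates CDK2, was higher by 0.86 against sgTetO and 0.71 against sgTetOmut on set 204696_s_at, but set 204695_at read 11.16 with sgIL1RN1~3, 10.97 with sgTetO and 11.26 with sgTetOmut. CDK2 was higher by 0.57 against sgTetO and 0.25 against sgTetOmut on set 211804_s_at, whose values are low, while the bright set 204252_at read 10.58 with sgIL1RN1~3, 10.53 with sgTetO and 10.62 with sgTetOmut. CCND2, cyclin D2, was higher by 0.33 against sgTetO and 0.50 against sgTetOmut on set 200951_s_at, while set 200953_s_at read 12.20 with sgIL1RN1~3, 12.32 with sgTetO and 12.30 with sgTetOmut. The list's median was 0.03 against sgTetO and -0.02 against sgTetOmut.

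Of 37 sets of E2F target genes, 11 were higher and 2 lower with sgIL1RN1~3 than with sgTetO, and 7 were higher and 2 lower than with sgTetOmut. The higher sets were 29.7% of the list against sgTetO, beside 15.0% of all sets, and 18.9% against sgTetOmut, beside 11.1%. The lower sets were 5.41% in each, beside 8.78% of all sets against sgTetO and 9.10% against sgTetOmut. MCM7, a subunit of the replicative helicase, was higher by 0.97 against sgTetO and 0.96 against sgTetOmut on set 210983_s_at and by 0.68 against sgTetO and 0.56 against sgTetOmut on set 208795_s_at. MCM4, of the same helicase, was higher by 1.01 against sgTetO and 1.08 against sgTetOmut on set 212142_at, but set 222036_s_at read 10.67 with sgIL1RN1~3, 10.67 with sgTetO and 10.66 with sgTetOmut. Its set 212141_at was higher by 0.37 against sgTetO and 0.36 against sgTetOmut. The brightest MCM4 set, 222037_at, differed by -0.06 from sgTetO and 0.24 from sgTetOmut. CDT1, which loads the helicase, was higher by 0.56 against sgTetO and 0.57 against sgTetOmut, and CDC6, which loads it too, differed by -0.45 from sgTetO and -0.58 from sgTetOmut on set 203968_s_at. The median of this list was 0.03 against sgTetO and 0.05 against sgTetOmut, beside 0.03 against sgTetO and 0.00 against sgTetOmut over all sets.

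**Figure D4:**
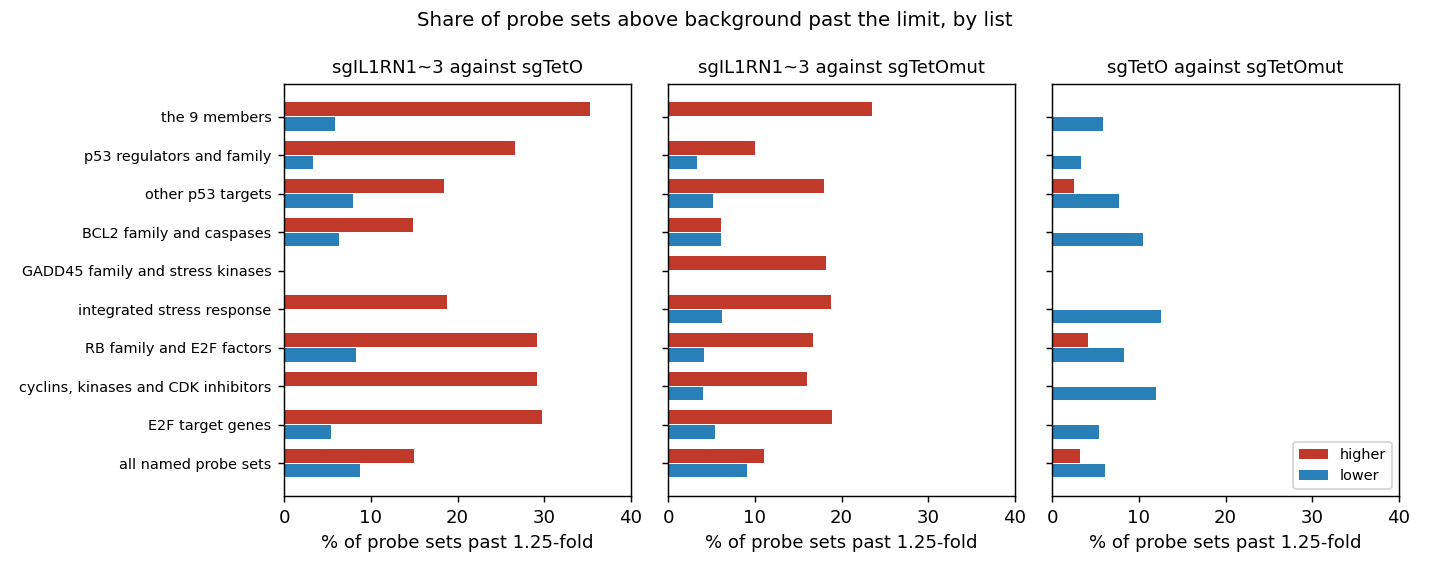
Share of probe sets above background (x axis, percent) at least 0.32 log2 units higher or lower in each comparison, for the 9 members, 8 pathway lists and all named sets (y axis). Against sgTetO the share higher with sgIL1RN1~3 is 35.3% for the members, from 17 sets, and 15.0% for all named sets, and between sgTetO and sgTetOmut the members' share higher is 0.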

How the data were processed

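RNA of 3 HEK293T samples was hybridised to single-channel arrays. The deposited table gives log2 values per probe set, made by the authors with affy, per the submitters' processing notes. The version, background correction and normalization are not stated in what was available. Log2 as the unit was taken from the deposited values, 1.36 to 14.5. The 3 columns had medians of 5.29 to 5.31, so differences are relative to the bulk of genes. On a given pair of arrays, 6.21% to 8.25% of probe sets were identical.

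Of 22277 probe sets, 19070 had 1 symbol in GEO's annotation, 1043 several and 2164 none. A set with several symbols was not named. The members, the 13 gene lists (247 entries, 213 measured) and the limit of 0.32 log2 units were chosen with earlier results of these data known. The named genes were all member sets, up to 4 genes per list furthest from the mean of sgTetO and sgTetOmut, and 8 fixed genes. Others were named after their values were seen, among them EP300, CDC6, IFI44, IFIH1, PAX2, NEFM and further sets of named genes.

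With 1 array per guide, nothing was tested. The results were recomputed with quantile or cyclic loess scaling (limma 3.58.1, R 4.3.3), 16 added to linear values, other filters, 1 value per gene, other limits and, after seeing the data, leaving out x_at sets. Counting used Python 3.11.15 with pandas 2.3.3. The rule was also run on simulated data for sgIL1RN1~3 against sgTetO with 13877 sets. Of these, 50 were raised at each of the folds 1.1, 1.5, 2 and 3, and 13677 were not raised. The rule found 10% of the raised sets at 1.1-fold, 96% at 1.5-fold, 100% at 2-fold and 100% at 3-fold. Among unraised sets it counted 4.21%. The simulated noise had the spread of sgTetO minus sgTetOmut, a standard deviation of 0.22 log2 units. That of sgIL1RN1~3 minus sgTetO was larger, 0.30. The 4.21% is therefore not a rate of false calls for the measured sgIL1RN1~3 comparisons.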

Additional observations from a re-analysis of the deposited data

How the results depend on the processing

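Precision is limited by having 1 array per guide, and low signal limits GDF15 and 4 of the MDM2 sets. No paired analysis was possible because each guide has 1 array. The differences of CDKN1A, both BAX sets and GDF15 221577_x_at from sgTetO and sgTetOmut kept their direction under quantile scaling, cyclic loess scaling and 16 added to the linear values, in all 24 values. With 16 added, GDF15 fell short of the limit, at 0.28 against sgTetO and 0.24 against sgTetOmut, and 4 member sets were higher than with sgTetO, where 9.26% of all sets were, and 3 than with sgTetOmut, where 6.11% were.

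Counts of member sets are small and moved with the limit. At 1.5-fold, 1 set was higher with sgIL1RN1~3 than with sgTetO, where 3.53% of all sets were, and 2 than with sgTetOmut, where 2.24% were. At 2-fold the counts were 0 and 0, where 0.250% of all sets were higher than with sgTetO and 0.162% than with sgTetOmut. Without x_at sets, 4 of 12 were higher with sgIL1RN1~3 than with sgTetO, where 15.2% of all sets were, and 3 of 12 than with sgTetOmut, where 11.1% were. With the mean of all probe sets per gene, 2 of 8 genes were higher in each, where 11.8% of all genes were higher than with sgTetO and 8.43% than with sgTetOmut. The 1 set lower with sgIL1RN1~3 than with sgTetO became 2 with no filter on level, and 0 with 16 added, at a minimum of the median level, with 1 set or the mean per gene, at 1.5-fold and 2-fold, and without x_at sets. The 1 set lower with sgTetO than with sgTetOmut became 0 under these settings other than no filter, and under quantile scaling. The member median against sgTetO was 0.28 at the median level (10 sets) and 0.35 with the brightest set per gene (8 genes). Over all sets at the median level it was 0.028, and over all genes with the brightest set 0.015. The median for sgTetO minus sgTetOmut changed sign to 0.015 under quantile and 0.0016 under cyclic loess scaling. A higher limit can only keep or lower a count. The cause of the other changes was not tested.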
